A study of Mus musculus with 18 samples.

Results

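The 31 genes described here encode the enzymes that build cholesterol, the enzymes that build and desaturate fatty acids, and the proteins that set their transcription. They were found by symbol among the 25909 genes of the deposited tables, except Msmo1, which is listed there under its older symbol Sc4mol and was matched by gene ID. By role they are 8 mevalonate and isoprenoid enzymes, 11 squalene and sterol enzymes, 5 SREBP regulators and sterol carriers, and 7 lipogenic enzymes. All 31 had enough counts to be tested among 12856 genes.

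Polyadenylated RNA was sequenced from SGET mouse embryonic stem cells (strain background B6CBA/129), a line with fluorescent reporters of Stella (SG) and Esg1 (ET), in a study of how loss of the nuclear receptor Esrrb affects germ cell formation in culture. The 6 groups were WT and Esrrb KO cells at 3 stages, with 3 libraries each, 18 in all. Stem cells of both genotypes were kept in 2i/LIF medium on gelatin. EpiLC, cells resembling the epiblast, were made on fibronectin with activin A and bFGF and were not sorted. PGCLC, cells resembling primordial germ cells, were made from EpiLC with BMP4, LIF, SCF, BMP8a and EGF and sorted as SG+ETlow after 3 or 5 days. The day 5 libraries carry "d6" in their descriptions. WT replicates are numbered 1, 2 and 3, and KO replicates carry the line names A5, B1 and A2. Medium, sorting and developmental stage changed together between EpiLC and PGCLC and cannot be told apart.

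Cholesterol is made from acetyl-CoA in the mevalonate pathway, which also yields the isoprenoids used for protein prenylation, and then through squalene and lanosterol. The transcription factors SREBP2 (Srebf2) and SREBP1 (Srebf1) are held in the endoplasmic reticulum with their escort Scap by Insig proteins when sterol is plentiful, and are cut free to switch on sterol and lipogenic genes when it is scarce. Their target promoters typically carry sterol regulatory elements beside binding sites of NF-Y (CCAAT boxes) and Sp1 (GC boxes). Acetyl-CoA for both branches comes from citrate through Acly or from acetate through Acss2, and Acaca, Fasn, Elovl6 and the Scd desaturases turn it into long and monounsaturated fatty acids.

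RefSeq promoter entries (build GRCm38.p6, 250 bases before to 50 after each start) existed for 25 of the 31 genes, and not for Fdps, Fdft1, Sqle, Stard4, Scd1 and Scd2. The CCAAT box, searched as CCAAT on both strands, was present in 21 of these 25 (84%), against 41.1% of 27025 genes with an entry. The GC box GGGCGG was present in 20 of 25 (80%), against 38.2% of genes. An SRE core spelled TCACNCCAC was found in Hmgcs1 alone, 1 of 25 (4%) against 1.44% of genes, and the E-box CACGTG in 5 of 25 (20%) against 8.09%. The short motif AAGGTCA, which nuclear receptors of the Esrrb kind can bind, was in 2 of 25 (8%) against 5.38%, and the extended form TCAAGGTCA, which contains it, in 0 of 25 against 0.466% of genes. These are letter matches in one window per start, not measured binding. The shares given for comparison are over all genes with an entry, not over the 12856 tested genes, while every member was tested. The 200 bases before the start are printed for 5 genes, taken from those with a single RefSeq start whose window lies outside the GENCODE M21 gene, to show both ends of the change described below: the 3 with the strongest fall from EpiLC to day 3 (Hmgcs1, Mvk, Fasn) and the 2 at the other end of the order (Ggps1, which was not called with all libraries, and Ebp, which rose). Capitals mark CCAAT on either strand (ATTGG is the reverse) and, in Hmgcs1, the SRE core TCACCCCAC that starts at position -137 from the transcription start.
Hmgcs1, chr13:119690151-119690350, plus strand: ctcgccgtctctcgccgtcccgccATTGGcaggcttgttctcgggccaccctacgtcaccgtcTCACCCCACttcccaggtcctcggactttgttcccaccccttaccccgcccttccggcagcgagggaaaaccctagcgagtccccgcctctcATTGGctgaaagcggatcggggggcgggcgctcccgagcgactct
Mvk, chr5:114444069-114444268, plus strand: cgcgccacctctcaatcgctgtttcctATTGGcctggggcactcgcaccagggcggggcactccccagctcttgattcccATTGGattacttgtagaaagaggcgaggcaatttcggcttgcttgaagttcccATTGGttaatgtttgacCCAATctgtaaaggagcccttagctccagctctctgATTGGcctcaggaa
Fasn, chr11:120824548-120824747, minus strand: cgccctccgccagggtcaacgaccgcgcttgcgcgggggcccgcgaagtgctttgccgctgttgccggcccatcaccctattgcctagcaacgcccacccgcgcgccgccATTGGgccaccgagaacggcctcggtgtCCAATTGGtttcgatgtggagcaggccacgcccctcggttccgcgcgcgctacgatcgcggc
Ggps1, chr13:14063489-14063688, minus strand: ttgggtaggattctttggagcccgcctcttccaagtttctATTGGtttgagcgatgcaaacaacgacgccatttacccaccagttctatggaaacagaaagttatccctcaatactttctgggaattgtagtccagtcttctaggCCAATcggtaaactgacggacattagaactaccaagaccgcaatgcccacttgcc
Ebp, chrX:8193513-8193712, minus strand: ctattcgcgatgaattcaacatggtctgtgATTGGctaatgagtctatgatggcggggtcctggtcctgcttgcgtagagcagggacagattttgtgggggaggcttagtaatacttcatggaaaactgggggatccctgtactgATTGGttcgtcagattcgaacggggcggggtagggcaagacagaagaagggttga
The windows held 2 matches of CCAAT in Hmgcs1, 5 in Mvk, 3 in Fasn (a pair of them overlapping), 2 in Ggps1 and 2 in Ebp. With the box in 84% of the members, 5 windows are too few to set it against the direction of change, which was not tested.

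Library totals ran from 3032965 to 5286330 counts (median 4246222), and levels are given as CPM computed on the TMM-scaled library total. Counts of WT pairs within a group differed by 1.11 to 1.80 chi-square units per degree of freedom, where counting noise alone gives about 1, and those of KO pairs by 3.88 to 33.6. Nothing in the labels says that the WT libraries came from separate cultures, so their spread may be technical, and p-values measure only the spread between these libraries. Esrrb had 79 to 127 counts in EpiLC WT libraries, 18 and 29 in EpiLC KO B1 and A5, and 167 in the EpiLC library labelled KO A2. That last count is above WT, but the library carried the shifts of chromosomes 1 and 11 that the other A2 libraries had, given below. At days 3 and 5 Esrrb had 2434 to 3125 counts in WT and 359 to 933 in KO libraries. The 9 formative epiblast markers summed to 5388 to 5489 CPM in EpiLC WT, 3647 to 4208 in EpiLC KO A5 and B1, and 1840 in EpiLC KO A2. In EpiLC KO A2 the 10 naive pluripotency markers summed to 425 CPM, against 181 to 226 in EpiLC WT. There 10 trophoblast markers summed to 1368 CPM and 12 mesenchyme markers to 672 CPM, against at most 208 and 132 in the other EpiLC KO libraries. Krt8 (487), Krt18 (686) and Krt7 (102) made up most of the trophoblast sum. Elf5 had 0, Eomes was within the WT range, and the other trophoblast markers lay above WT. Thy1, Dcn and Twist1 lay below every EpiLC WT library, Lum had 0, and the other mesenchyme markers lay above. The 10 germ cell markers rose from 86.2 to 112 CPM in EpiLC WT to 1158 to 1207 CPM at day 3. In all libraries of line A2 the genes of chromosome 11, which holds Fasn, Acly, Acaca and Srebf1, had a median log2 ratio to WT of -0.48 to -0.42, against 0.01 to 0.08 in the other KO libraries. Genes of chromosome 1, where Hsd17b7 lies, had +0.31 to +0.32 in line A2. Those of chromosome 8, with Mvd and Msmo1, had -0.19 to -0.09 in all KO libraries, against -0.04 to 0.05 in WT libraries. Genes of chromosome 16, on which no member lies, had -0.48 to -0.42 in line B1 and -0.47 to -0.43 in line A2. In line A5 they had -0.06 to 0.04.

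In WT EpiLC 3 lipogenic genes and 1 mevalonate gene had the highest levels of the set. Per kilobase of exon, Scd2 (stearoyl-CoA desaturase) stood at 256 ± 1.5 CPM, Acly at 245 ± 4.1, Hmgcs1 (HMG-CoA synthase) at 225 ± 11 and Fasn (fatty acid synthase) at 176 ± 5.7 (SD, n = 3). Scd1 and Insig1 followed at 83.5 ± 1.4 and 82.8 ± 1.4, a pair closer than its spread. Acss2 (1.65 ± 0.28) and Idi1 (1.80 ± 0.10) were the lowest. Reads shared with paralogs or processed copies (Scd1 with Scd2, Idi1, Fdps) may be split in ways the sources do not state, so these levels are uncertain. Summed over genes, the 31 genes took 10218 to 10267 CPM in EpiLC WT, 4437 to 4607 CPM in day 3 WT and 4010 to 4446 CPM in day 5 WT libraries. Of the EpiLC WT sum, 5414 ± 87 CPM (SD, n = 3) belonged to the 7 lipogenic genes.

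**Figure D1:**
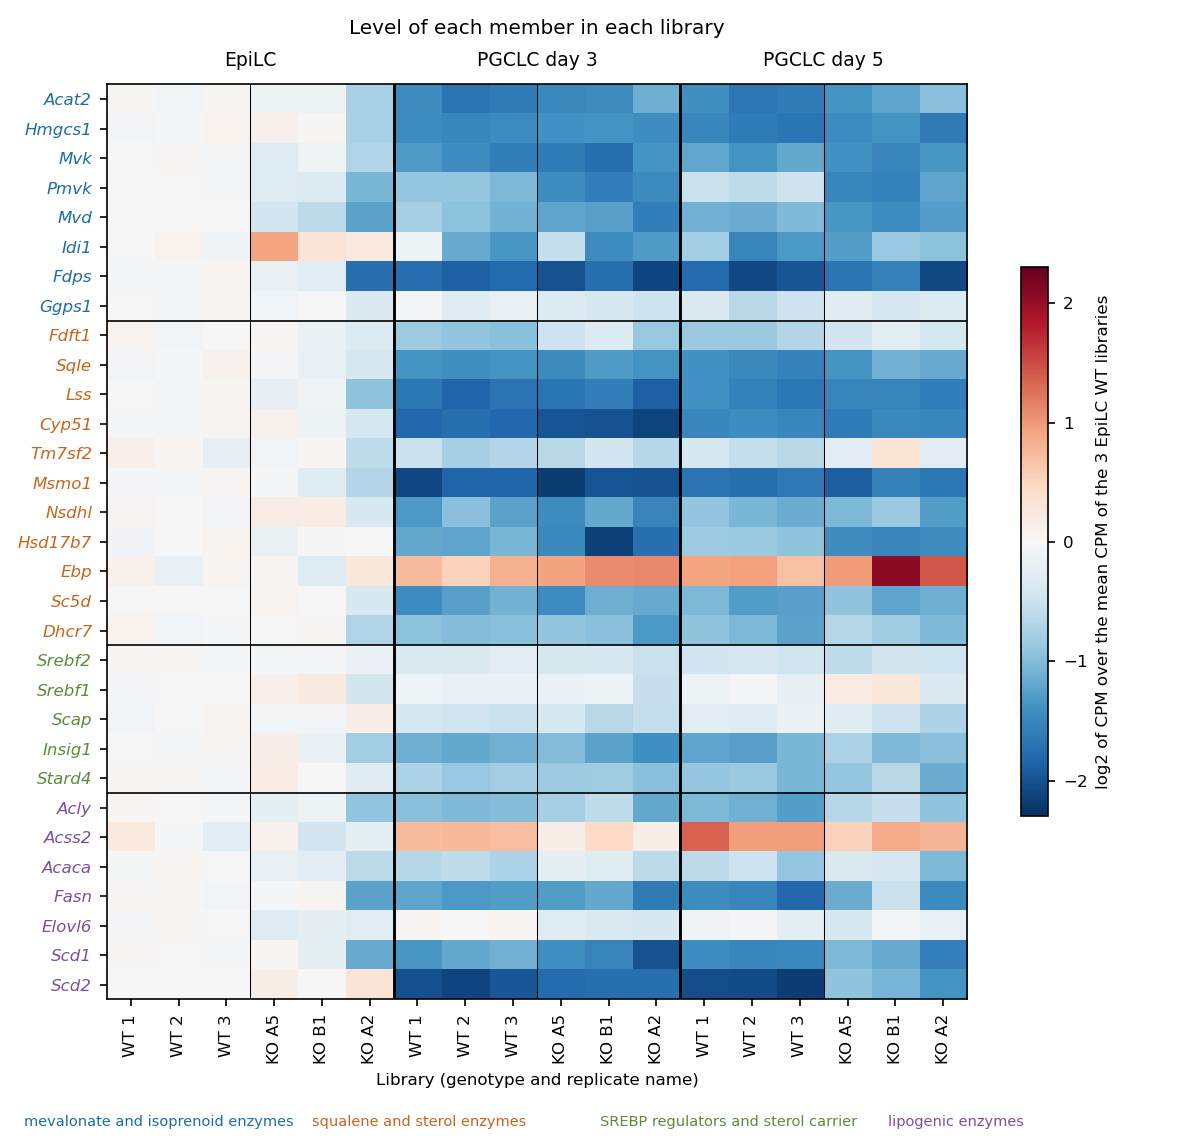
Level of the 31 genes (rows, coloured by role) in the 18 libraries (columns), as log2 of the CPM over the mean CPM of the 3 EpiLC WT libraries. Blue is lower and red higher: most rows turn blue in every PGCLC library, Ebp and Acss2 turn red, and the EpiLC library of KO line A2 is bluer than the other 5 EpiLC libraries.

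From EpiLC to day 3 PGCLC the sterol pathway fell nearly as a whole in WT cells. Of the 31 genes, 25 fell and 2 rose, with a median log2 fold change of -0.99, while 28.5% of all tested genes fell, 29% rose, 57.5% were called in all, and their median was 0.00. In KO cells 24 fell and 1 rose, with a median of -0.99. Of all genes 21.4% fell there, 20.6% rose and 42% were called (median -0.03). Both comparisons used edgeR's quasi-likelihood test with Benjamini-Hochberg adjustment over all tested genes, 3 libraries against 3, and log2 fold changes below carry their SE. The KO median included the EpiLC library labelled KO A2, in which most of these genes were low, as described below. Without that library the middle of the 31 KO values was -1.20, that of Insig1.

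Among the mevalonate enzymes, 6 of 8 fell in WT and 7 of 8 in KO. Hmgcs1, which makes HMG-CoA, stood at 990, 1018 and 1090 CPM in EpiLC WT and at 378, 365 and 380 CPM at day 3. The WT groups were far apart, with a log2 fold change of -1.46 ± 0.16 (adjusted p = 1.4e-06). In KO cells Hmgcs1 stood at 1120 and 1068 CPM in lines A5 and B1 but 612 CPM in line A2, and at 382 to 397 CPM at day 3, a fall of 1.26 ± 0.16 on the log2 scale (adjusted p = 1.5e-05). Fdps, which makes farnesyl diphosphate, fell by 1.81 ± 0.27 in WT and by 1.39 ± 0.27 in KO. Acat2 (acetoacetyl-CoA thiolase) fell by 1.57 ± 0.16 and 1.04 ± 0.16, Mvk (mevalonate kinase) by 1.44 ± 0.14 and 1.21 ± 0.15, Pmvk (phosphomevalonate kinase) by 0.93 ± 0.15 and 0.97 ± 0.16, and Mvd (mevalonate diphosphate decarboxylase) by 0.93 ± 0.16 and 0.63 ± 0.16. Idi1, the isomerase after Mvd, had only 2.2 to 11.8 CPM in any library. Its log2 change was -0.78 ± 0.34 in WT (adjusted p = 0.057) and -1.51 ± 0.34 in KO (adjusted p = 0.0021). Ggps1, which makes geranylgeranyl diphosphate for prenylation and not for sterol, was the mevalonate member with the smallest change. Its values were 31.4 to 33.4 CPM in EpiLC WT and 26.6 to 31.4 CPM at day 3, a log2 change of -0.16 ± 0.12 (adjusted p = 0.25). In KO it changed by -0.26 ± 0.12 (adjusted p = 0.094), and by -0.35 ± 0.12 without the EpiLC library labelled KO A2 (adjusted p = 0.026).

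The squalene and sterol enzymes fell in 10 of 11 cases in WT and 9 of 11 in KO, and the exception that rose in both was Ebp. Msmo1 (sterol C4-methyl oxidase) stood at 323, 331 and 351 CPM in EpiLC WT and at 78.7, 93.0 and 93.4 CPM at day 3, a log2 change of -1.92 ± 0.14 (adjusted p = 2.7e-08). In the KO lines A5, B1 and A2 it went from 329, 275 and 209 CPM to 73.6, 85.0 and 83.6 CPM, a change of -1.75 ± 0.14 (adjusted p = 2.4e-07). Cyp51 (lanosterol demethylase) changed by -1.78 ± 0.10 in WT and -1.91 ± 0.10 in KO. Lss (lanosterol synthase) changed by -1.73 ± 0.16 and -1.36 ± 0.16. Sqle (squalene epoxidase) changed by -1.39 ± 0.10 and -1.20 ± 0.10. The later enzymes Sc5d, Nsdhl, Hsd17b7 and Dhcr7 fell by 0.97 to 1.25 on the log2 scale in WT. Fdft1 (squalene synthase), the first step committed to sterol, fell by 0.90 ± 0.12 in WT and by 0.40 ± 0.12 in KO (adjusted p = 0.015). The KO call of Fdft1 was lost without EpiLC KO A5 (-0.30, adjusted p = 0.080) or without day 3 KO A2 (-0.25, adjusted p = 0.076). Tm7sf2, a sterol C14-reductase, fell by 0.65 ± 0.18 in WT and was not called in KO (-0.39 ± 0.18, adjusted p = 0.086). Without the EpiLC library labelled KO A2 it was called in KO too (-0.56 ± 0.17, adjusted p = 0.010).

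Ebp, the sterol isomerase between these enzymes, went the other way. Its values were 16.3, 13.6 and 15.9 CPM in EpiLC WT and 25.1, 22 and 26.8 CPM at day 3. The log2 fold change was 0.69 ± 0.22 in WT (adjusted p = 0.014) and 1.02 ± 0.22 in KO (adjusted p = 0.0017). Without EpiLC WT 2 the WT change was 0.61 and no longer called (adjusted p = 0.057).

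Of the 5 regulators and carriers, 4 fell in each genotype. Srebf2 had 431 to 454 CPM in EpiLC WT and 356, 356 and 376 CPM at day 3, a log2 change of -0.30 ± 0.07 (adjusted p = 0.0018), and in KO it changed by -0.34 ± 0.07 (adjusted p = 0.0011). Srebf1, at 149 to 155 CPM in EpiLC WT and 138 to 143 CPM at day 3, was not called in either genotype (-0.13 ± 0.16 and -0.25 ± 0.16), but without the EpiLC library labelled KO A2 its change in KO was -0.42 ± 0.14 and called (adjusted p = 0.018). Counts per gene do not separate the transcripts of SREBP1a and SREBP1c. Scap fell by 0.46 ± 0.11 in WT and 0.54 ± 0.11 in KO. Insig1, itself an SREBP target as well as its anchor, fell from 253, 254 and 261 CPM to 113, 117 and 119 CPM in WT, a change of -1.14 ± 0.17 (adjusted p = 3.7e-05), and by 0.99 ± 0.17 in KO. Stard4, a soluble sterol carrier, fell by 0.79 ± 0.12 and 0.85 ± 0.13.

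Of the 7 lipogenic enzymes, 5 fell and 1 rose in WT, and 4 fell in KO. Scd2 had the largest fall of all 31 genes in WT, from 1403, 1388 and 1400 CPM to 346, 322 and 355 CPM (log2 change -2.03 ± 0.10, adjusted p = 1.2e-09). In the KO lines A5, B1 and A2 it went from 1527, 1383 and 1722 CPM to 410, 418 and 419 CPM (-1.89 ± 0.10, adjusted p = 5.4e-09). Scd1 fell by 1.20 ± 0.22 and 1.26 ± 0.23, and Fasn by 1.28 ± 0.27 and 1.05 ± 0.27. Acly fell from 1278 to 1319 CPM in EpiLC WT to 643 to 666 CPM (-0.99 ± 0.17, adjusted p = 0.00015). In KO its change was -0.44 ± 0.17 (adjusted p = 0.048), a call lost without EpiLC KO A5 (-0.35), EpiLC KO B1 (-0.29), day 3 KO A5 (-0.46) or day 3 KO A2 (-0.28). Acaca (acetyl-CoA carboxylase) changed by -0.65 ± 0.17 in WT (adjusted p = 0.0042) and by -0.03 ± 0.17 in KO (adjusted p = 0.92). Elovl6, the elongase from C16 to C18, was flat, at 290 to 302 CPM in EpiLC WT and 298 to 306 CPM at day 3. Acss2, the acetate route to acetyl-CoA, rose in WT from 19.7, 16.6 and 14.1 CPM to 27.8, 28.2 and 27.5 CPM (0.73 ± 0.17, adjusted p = 0.0017), and was not called in KO (0.41 ± 0.18, adjusted p = 0.070).

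**Figure D2:**
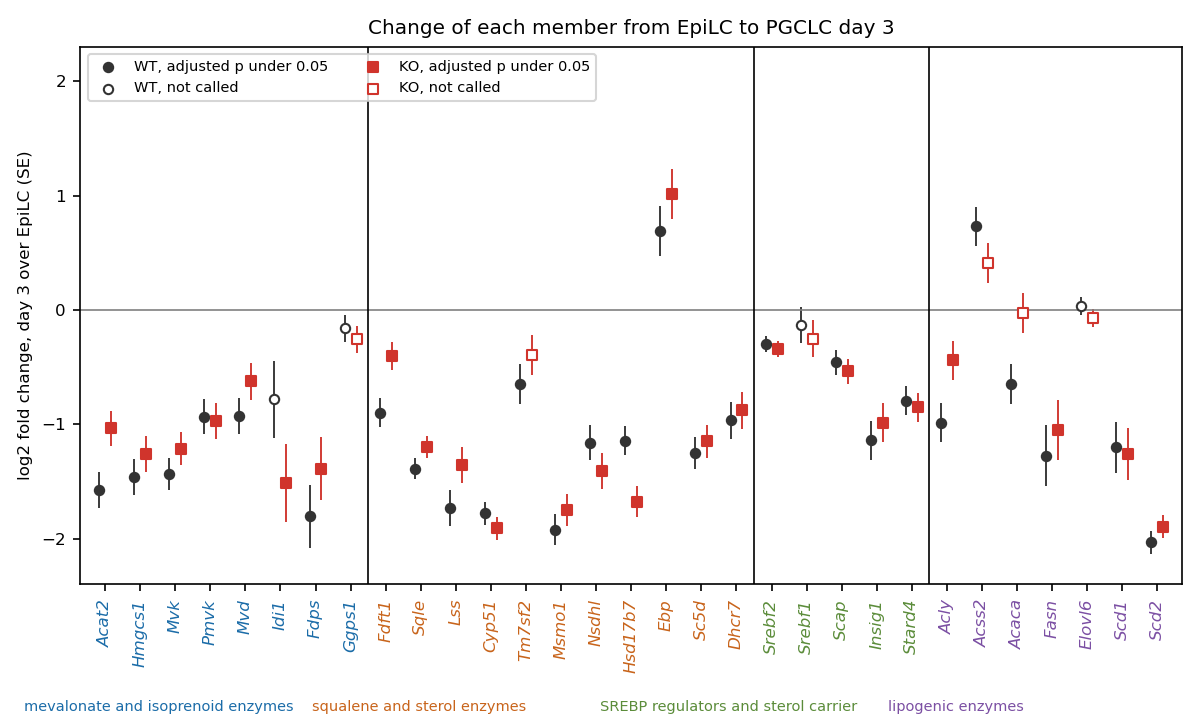
Log2 fold change from EpiLC to PGCLC day 3 (vertical axis, bars are SE) of each gene in WT (black circles) and KO (red squares), filled where the edgeR adjusted p was under 0.05. Most points lie below 0 in both genotypes, with Scd2 lowest in WT at -2.03, while Ebp and Acss2 lie above 0.

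Whether this step differed between genotypes was tested by the interaction of KO with induction. With edgeR 0 of 31 genes were called (of all tested genes 6.59% were, 2.96% higher and 3.63% lower), 5 had an unadjusted p under 0.05, and DESeq2 and limma-trend also called 0. The lines A5, B1 and A2 recur at each stage, so a fit with the replicate name as a block was made as well. That fit called 3 members, with 11.3% of all genes called (5.62% higher and 5.72% lower): Fdft1 (0.49 ± 0.15, adjusted p = 0.048), Acly (0.56 ± 0.11, adjusted p = 0.0092) and Acaca (0.63 ± 0.14, adjusted p = 0.015). Each of these 3 fell less in KO than in WT cells. Acly and Acaca lie on chromosome 11, which is shifted in line A2; with the chromosome medians removed, a setting chosen after the data were seen, Acly was at 0.50 ± 0.11 and Acaca at 0.57 ± 0.15, both called. Without any library of line A2 the same 3 were called at 0.55 ± 0.12 for Fdft1, 0.49 ± 0.10 for Acly and 0.61 ± 0.15 for Acaca, while 14.7% of all genes were called, 7.61% higher and 7.11% lower.

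From day 3 to day 5 little was called in WT cells in the fit of all 6 groups, which shares the spread of WT and KO libraries. With edgeR 0 of 31 genes were called, 5 had an unadjusted p under 0.05, DESeq2 and limma-trend called 0, and of all tested genes 0.77% were called, 0.288% higher and 0.482% lower (median of the 31 genes 0.01, of all genes 0.00). A fit of only the 2 WT groups called members in both directions, as given in the last paragraph, so this result depends on the fit. In KO cells 2 rose and the median was 0.17, with 26 of 31 estimates above 0, while 0.552% of all genes were called, 0.366% higher and 0.187% lower, and their median was 0.00. Scd2 rose from 410, 418 and 419 CPM to 732, 666 and 542 CPM in lines A5, B1 and A2 (0.64 ± 0.10, adjusted p = 0.011). Cyp51 rose from 73.1 to 80.4 CPM to 105 to 114 CPM (0.51 ± 0.10, adjusted p = 0.044). The call of Cyp51 was lost when any 1 of the 6 libraries was left out (0.46 to 0.55), and that of Scd2 without day 3 KO B1 (0.64, adjusted p = 0.063). Neither call was kept when only the 2 KO groups were fitted. The interaction of KO with this step called 0 of 31 genes and 0% of all genes with edgeR, 0 with limma-trend and 1 member with DESeq2, and 3 members had an unadjusted p under 0.05. Its estimate was above 0 for 26 of 31 genes, with a median of 0.20, and for Scd2 it was 0.69 ± 0.14 (adjusted p = 0.27). Without line A2 this interaction called Scd2 (0.81 ± 0.09) and Scd1 (0.65 ± 0.12), while 0.654% of all genes were called, 0.516% higher and 0.139% lower. In the same fit 5 members were called from day 3 to day 5 in KO, against 6.72% of all genes, 3.59% higher and 3.13% lower.

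Against WT at the same stage, KO EpiLC differed in few of these genes beyond the spread. Of the 31, 2 were called, both lower (of all tested genes 4.15% were lower, 6.93% higher and 11.1% called in all), and the median was -0.18 against 0.01 over all genes. Mvd (chr8:122433601-122443422) stood at 139, 141 and 141 CPM in WT and at 104, 92.3 and 59.5 CPM in KO A5, B1 and A2 (-0.72 ± 0.15, adjusted p = 0.014). Pmvk (chr3:89454541-89469013) stood at 105, 104 and 102 CPM in WT and at 84.5, 82.7 and 50.0 CPM in KO (-0.51 ± 0.15, adjusted p = 0.038). All KO libraries lay below all WT libraries in both genes. They did so in 9 of the 31 genes and in 16.3% of all tested genes, and lay above WT in 1 of the 31. Of the 31 estimates 26 were below 0, and 7 genes had an unadjusted p under 0.05 with edgeR, all lower. These calls were fragile: Mvd lost its call without WT 1, WT 2 or WT 3 (-0.73 to -0.72, adjusted p = 0.052 to 0.054), and Pmvk without WT 1, WT 2 or WT 3 (-0.53 to -0.51) or KO A2 (-0.31, adjusted p = 0.084). With the chromosome medians removed, Mvd kept a change of -0.62 ± 0.16 (adjusted p = 0.022).

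The EpiLC KO libraries differed among themselves, and differences between KO replicates cannot be told apart from differences between the lines. In the library labelled KO A2, 24 of the 31 genes had their lowest value of the 6 EpiLC libraries, against 36.5% of all tested genes, and 15 were at least 1.5-fold below the WT mean, against 20.8% of all genes. Fdps had 102 CPM there against 304 and 286 CPM in A5 and B1 and 330 to 354 CPM in WT. Fasn had 822 CPM against 1855 and 2014 CPM in A5 and B1 and 1851 to 1965 CPM in WT, and Scd1 had 182 CPM against 419, 349 and 401 to 414 CPM. The fall was not general: Scd2 was at 1722 CPM, the highest of the 6 libraries, and Scap, Idi1 and Ebp were also above the WT mean. The median log2 ratio to the WT mean over the 31 genes was -0.43 in KO A2, -0.10 in B1 and -0.03 in A5, with -0.03 to 0.00 over all tested genes. This is the library in which Esrrb and the summed naive, formative, trophoblast and mesenchyme markers also stood apart, and their part in the lower lipid genes was not tested. In bulk RNA, fewer cells of a type and less RNA per cell cannot be told apart. Without it the median of the EpiLC comparison was -0.07, and Mvd alone was called (-0.52 ± 0.11, adjusted p = 0.017). Without the libraries of line A2 at all 3 stages, which also narrows the shared estimate of spread, Mvd (-0.52 ± 0.09), Pmvk (-0.31 ± 0.09) and Elovl6 (-0.26 ± 0.08) were called, while 13.8% of all genes were called, 6.59% higher and 7.18% lower.

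**Figure D3:**
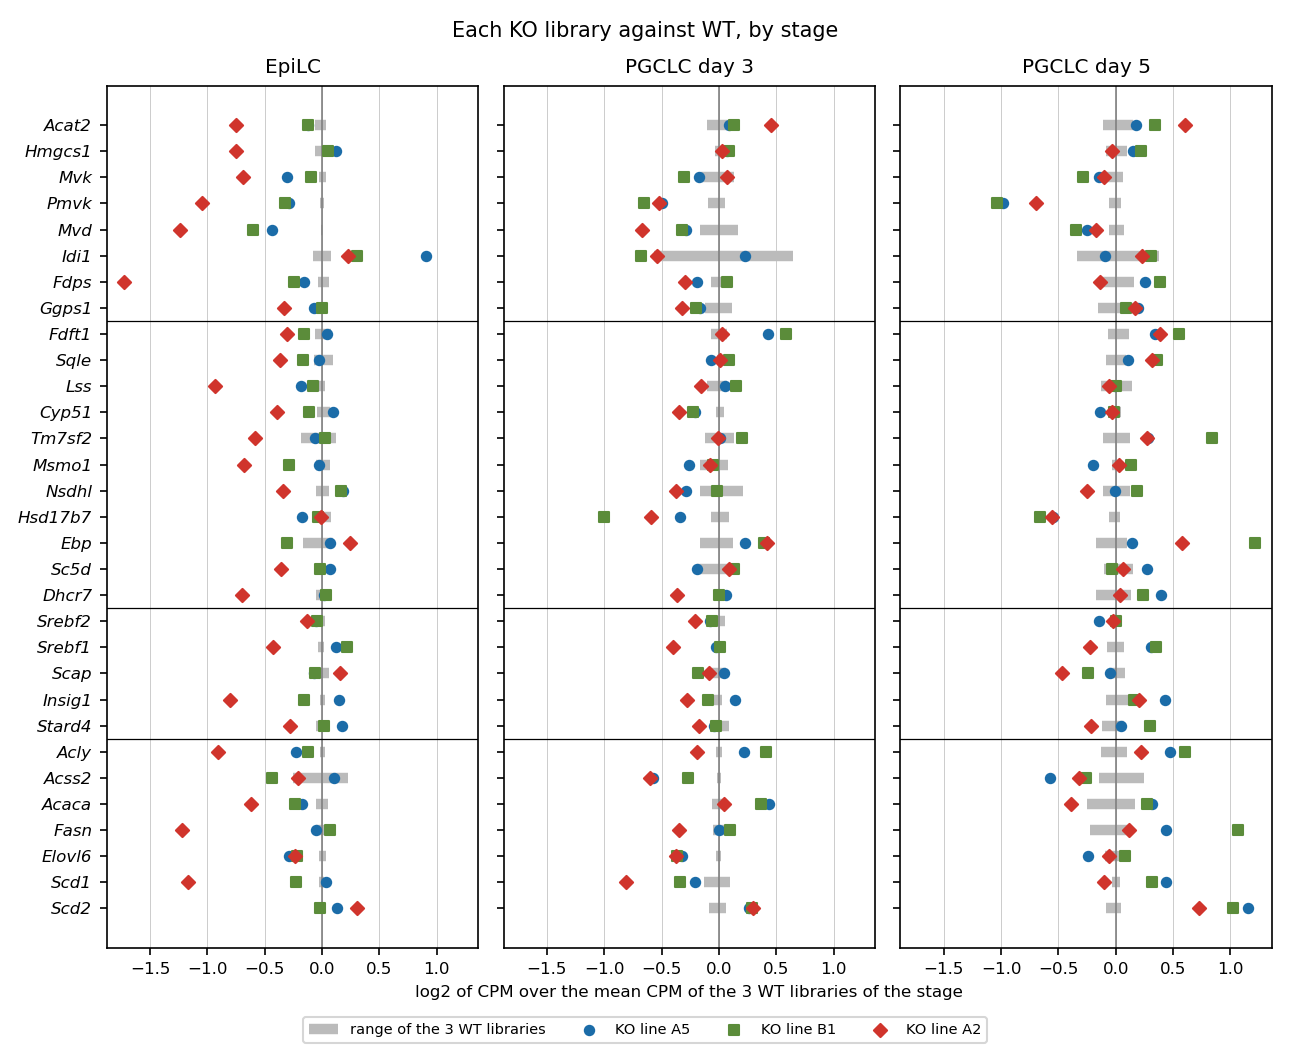
Log2 of the CPM in each KO library over the mean CPM of the 3 WT libraries of its stage (horizontal axis), for the 31 genes in rows and the 3 stages in panels. Grey bars span the 3 WT libraries. In EpiLC the points of line A2 (red diamonds) lie left of the others for most genes, with Fdps at -1.73, and at day 5 the points for Scd2 lie right of the WT bar in all 3 lines and those for Pmvk left of it.

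At day 3, 3 of the 31 genes were called lower in KO and no member higher, against 5.18% of all genes lower, 5% higher and 10.2% called in all; 2 members were higher at an unadjusted p under 0.05. Hsd17b7 (chr1:169949535-169969241), the sterol C3-ketoreductase, stood at 23.4, 22.8 and 25.5 CPM in WT and at 18.9, 11.9 and 15.8 CPM in KO A5, B1 and A2 (-0.60 ± 0.14, adjusted p = 0.0099). Elovl6 stood at 306, 298 and 304 CPM in WT and at 243, 234 and 233 CPM in KO (-0.35 ± 0.08, adjusted p = 0.0093). Both calls held when any 1 library was left out. Pmvk stood at 55.8, 56.1 and 50.7 CPM in WT and at 38.5, 34.4 and 37.7 CPM in KO (-0.55 ± 0.16, adjusted p = 0.033), but lost its call without any 1 of the 6 libraries (adjusted p = 0.051 to 0.11) and with the replicate block (adjusted p = 0.064). Without line A2, 9 of the 31 genes were called, 4 higher and 5 lower, while 20.9% of all genes were called, 10.6% higher and 10.3% lower. Here Fdft1 (0.50 ± 0.09), Acaca (0.39 ± 0.11), Acly (0.31 ± 0.07) and Scd2 (0.27 ± 0.07) were higher, and Mvd and Scd1 joined the 3 lower genes.

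At day 5 the KO cells carried more Scd2 and less Pmvk RNA. Of the 31 genes, 3 were higher and 2 lower, against 9.83% and 7.62% of all tested genes (17.5% called in all), and the median was 0.11 against 0.01. Scd2 (chr19:44293674-44306864) stood at 340, 336 and 310 CPM in WT and at 732, 666 and 542 CPM in KO A5, B1 and A2. Every KO library was above every WT library, as in 20.9% of all tested genes, a 1.97-fold difference (log2 0.98 ± 0.10, adjusted p = 1.2e-05) that kept its call when any 1 library was left out. The level reached in KO, 647 ± 97 CPM (SD, n = 3), remained below the 1397 ± 8.0 CPM of EpiLC WT.

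Pmvk was the member most reduced in KO at day 5. It stood at 72.4, 68.7 and 74.2 CPM in WT and at 36.4, 35.1 and 44.3 CPM in KO (-0.89 ± 0.15, adjusted p = 0.00086). Hsd17b7 stood at 29.5, 29.2 and 27.7 CPM in WT and at 19.7, 18.3 and 19.6 CPM in KO (-0.59 ± 0.13, adjusted p = 0.0053). Both calls held without any 1 library. In line A2 the median of the chromosome 1 genes was shifted up, while Hsd17b7, which lies there, was below WT in that line. With the chromosome medians removed Hsd17b7 was at -0.67 ± 0.15 (adjusted p = 0.0051), and the cause of its difference was not tested.

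The other day 5 calls, Ebp and Fdft1, were lost when single libraries were left out. Ebp stood at 28.5, 29.2 and 24.3 CPM in WT and at 30.2, 63.5 and 40.9 CPM in KO A5, B1 and A2 (0.71 ± 0.21, adjusted p = 0.026). Without KO B1 its change was 0.38 (adjusted p = 0.16), and the call was also lost without WT 1 (0.74), WT 2 (0.76) or WT 3 (0.63). Fdft1 stood at 102, 101 and 115 CPM in WT and at 134, 155 and 139 CPM in KO (0.43 ± 0.12, adjusted p = 0.024), a call lost without WT 1 (0.40), WT 2 (0.39) or KO B1 (0.36).

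Some lipogenic genes were uneven among the KO lines at day 5. Fasn stood at 702, 684 and 551 CPM in WT and at 873 and 1353 CPM in KO A5 and B1, but at 701 CPM in KO A2, and was not called over all 3 lines (0.60 ± 0.26, adjusted p = 0.14). Acly stood at 538 to 629 CPM in WT, at 818 and 894 CPM in A5 and B1 and at 685 CPM in A2 (0.44 ± 0.17, adjusted p = 0.088). Scd1 stood at 144 to 151 CPM in WT, at 200 and 184 CPM in A5 and B1 and at 138 CPM in A2 (0.24 ± 0.22, adjusted p = 0.51). Fasn and Acly lie on chromosome 11, which was lower as a whole in line A2, and Scd1 and Scd2 lie on chromosome 19, where the A2 medians were -0.01 to 0.11. With the chromosome medians removed, Fasn was at 0.68 ± 0.16 (adjusted p = 0.0084), Acly at 0.56 ± 0.08 (adjusted p = 0.00019) and Srebf1 at 0.27 ± 0.06 (adjusted p = 0.0084). Without line A2, 19 of the 31 genes were called, 15 higher and 4 lower, while 29.9% of all genes were called, 15.7% higher and 14.2% lower. Among the 15 were Scd2 (1.08 ± 0.06), Fasn (0.78 ± 0.15), Acly (0.53 ± 0.07), Tm7sf2 (0.58 ± 0.14), Scd1 (0.37 ± 0.08) and Srebf1 (0.33 ± 0.07). In that fit the KO group held 2 libraries, and whether lines A5 and B1 differ from A2 in these genes was not tested. The 7 lipogenic genes summed to 1877 to 2197 CPM in day 5 WT and to 2397 to 3478 CPM in day 5 KO libraries. The 11 squalene and sterol genes summed to 750 to 803 CPM in WT and 816 to 931 CPM in KO. For the 8 mevalonate genes the sums were 645 to 714 and 649 to 714 CPM, and for the 5 regulators and carriers 728 to 747 and 696 to 796 CPM.

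**Figure D4:**
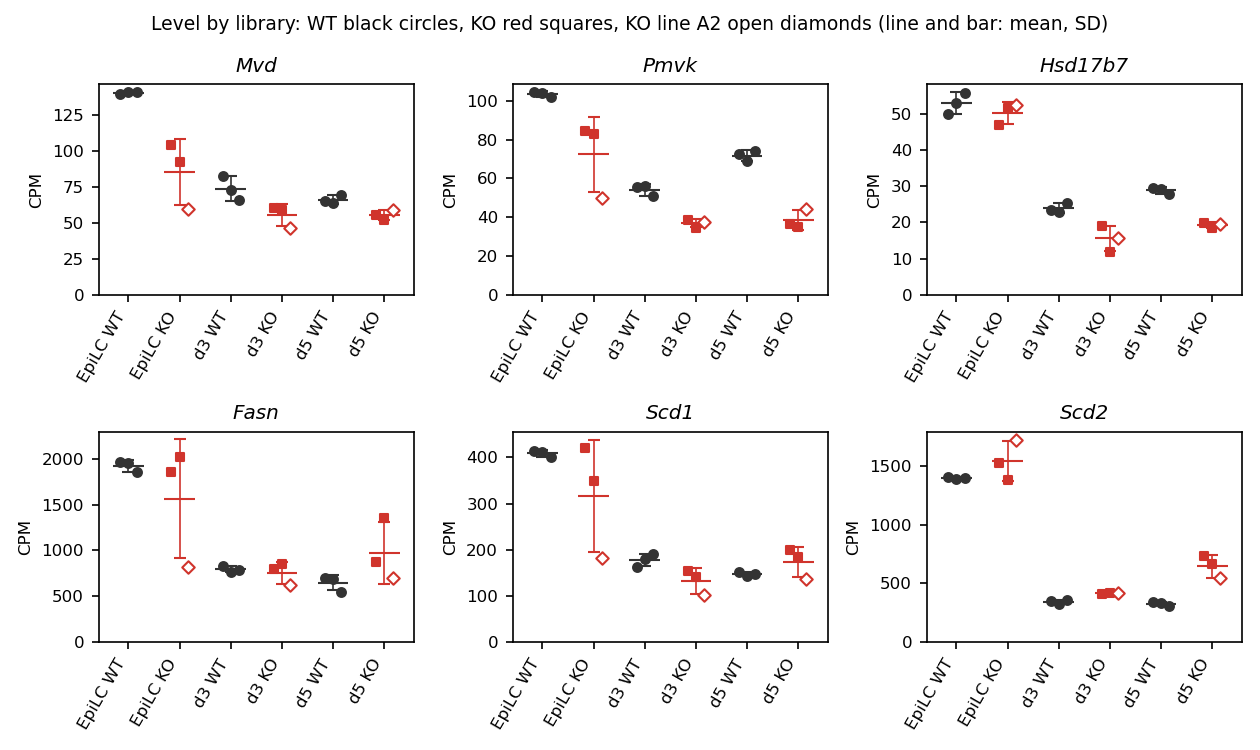
CPM of Mvd, Pmvk, Hsd17b7, Fasn, Scd1 and Scd2 (vertical axes, from 0) in the 3 libraries of each of the 6 groups, with lines for the mean and bars for the SD. The open diamonds of line A2 lie low in EpiLC for all but Hsd17b7 and Scd2, and the day 5 KO libraries lie above WT for Scd2 (542 to 732 against 310 to 340 CPM) and below WT for Pmvk and Hsd17b7.

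Companion genes of the same pathways were read from lists, and those named were among the largest called changes of their list. Among 16 further sterol and isoprenoid genes, 8 fell and 4 rose from EpiLC to day 3 in WT (median -0.33), and 5 fell and 1 rose in KO (median -0.20). Pgrmc1, a partner of Cyp51, changed by -1.92 ± 0.16 in WT and by -1.15 ± 0.16 in KO. Among the 18 tested genes of sterol uptake, transport, storage and efflux, 7 rose and 4 fell in each genotype. Of all tested genes, 29% rose and 28.5% fell in WT, and 20.6% rose and 21.4% fell in KO, and these shares apply to each list of this step. Among those that fell were the lipoprotein receptors Vldlr (-3.11 ± 0.39 in WT) and Lrp8 (-1.46 ± 0.25). Abca1, which exports cholesterol, rose in WT from 1.2 to 2.9 CPM to 13.9 to 14.7 CPM (2.77 ± 0.84, adjusted p = 0.010), and had 35.5 CPM in the EpiLC library labelled KO A2 against 2.5 and 2.0 CPM in A5 and B1. Among 12 genes of SREBP processing and sterol feedback, 6 rose and 3 fell in WT, with Erlin1 at 1.36 ± 0.12.

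At day 5, 4 of the 18 uptake and transport genes were called, all higher in KO, against 9.83% of all tested genes. Among them were Npc1 (0.44 ± 0.11) and Abcg1 (1.24 ± 0.30), which act in cholesterol export from lysosomes and from cells. The call of Npc1 was lost without WT 3 (0.40, adjusted p = 0.050) and that of Abcg1 without WT 2 (1.10, adjusted p = 0.055).

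Among 26 tested genes of further fatty acid and glycerolipid synthesis, 11 fell and 5 rose in WT and 10 fell and 2 rose in KO from EpiLC to day 3. The desaturases of polyunsaturated fatty acids were among those that fell, with Fads2 at -2.49 ± 0.27 in WT and -2.20 ± 0.27 in KO and Fads1 at -1.58 ± 0.20 and -1.87 ± 0.21. Fads2 went from 229 to 240 CPM in EpiLC WT to 36.6 to 47.1 CPM. Of 19 tested genes of fatty acid oxidation, 11 rose and 1 fell in WT (median 0.45), against 29% and 28.5% of all tested genes. In KO 7 rose (median 0.19), against 20.6% of all genes. Cpt1a, which admits fatty acids to the mitochondrion, went from 10.4 to 11.5 CPM to 145 to 155 CPM in WT (3.77 ± 0.37, adjusted p = 6.9e-07), and to 68.8 to 103 CPM in KO at day 3. At day 5, 7 of these 19 genes were lower in KO (median -0.28), against 7.62% of all tested genes. Acaa2, the mitochondrial thiolase, stood at 116 to 120 CPM in WT and at 21.2, 23.2 and 19.4 CPM in KO (-2.47 ± 0.13, adjusted p = 9.3e-09). Ehhadh was at -1.30 ± 0.29, with 38.8 to 47.4 CPM in WT and 26.6, 14.6 and 10.2 CPM in KO A5, B1 and A2. Slc25a20, the carnitine carrier, was at -1.10 ± 0.29, a call lost without WT 1 (adjusted p = 0.070) or KO A2 (-0.78, adjusted p = 0.057). The part of chromosome shifts in the companion genes, such as that of chromosome 16 in lines B1 and A2, was not tested.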

How the data were processed

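The authors deposited raw counts by gene for each of the 18 libraries and a table of CPM, in which every column equalled the count over the library total to within 1e-06. The submitters' processing notes name Trim Galore 0.4.3.1 for trimming and mm10 and GRCm38.p4 as builds. For the aligner, the counting tool, the strand setting and the handling of reads with several matches, the answer is not given in the sources used here. The library kit was directional, per the labels' protocols. Rows without a gene ID (56 a file, 0.0559% to 0.0828% of the counts) were dropped.

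Members, companion lists and comparisons were chosen with earlier results of these data known. Any of the 31 members may be named, and of each companion list up to 4 called genes per comparison with the largest change. Some companion genes that meet this rule are not reported here. In R 4.3.3, edgeR 4.0.16 fitted the 12856 genes that passed filterByExpr in a single model (TMM factors 0.964 to 1.04, 1 mean for each of 6 groups, robust quasi-likelihood). A gene was called in any of the 9 comparisons when its Benjamini-Hochberg adjusted p was under 0.05. SE is the log2 fold change divided by the square root of F. The scripts were tested on simulated data.

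Alternatives were RLE size factors, no filter, DESeq2 1.42.0, limma-trend (limma 3.58.1) on log2 CPM with 1 added, separate fits for the groups of each comparison, fits leaving out single libraries or line A2, a replicate block (limma-voom with a random effect for KO against WT, a fixed term in edgeR for steps and interactions) and, chosen after seeing the data, removal of the chromosome medians of each library. KO line names paired the libraries, which come from the same cell lines (deviations from group means correlated above 0.1 in 9 of 9 pairs, 0.158 to 0.696), and by this measure WT numbers did not (1 of 9). On chromosome 8, however, the median log2 ratio of WT 2 was above 0 at every stage (0.020 to 0.052). Those of WT 1 and WT 3 were below 0 at every stage (-0.040 to -0.0036). Gene positions and exon lengths are those of GENCODE M21 on GRCm38, and the authors' annotation may differ.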

Additional observations from a re-analysis of the deposited data

Results flagged for a closer look

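The change from EpiLC to day 3 differed between KO and WT, by edgeR's test of the interaction, in the 6 companion genes given here. Of all tested genes 6.59% were called in it, 2.96% higher and 3.63% lower. The companion lists held 16, 12, 18, 26 and 19 tested genes, so calls in them are not set apart from those of all genes. On the log2 scale the difference of the fold changes (KO minus WT) was 0.77 for Pgrmc1, a partner of Cyp51, and 0.72 for Fntb, the beta subunit of farnesyltransferase. Pgrmc1 fell less in KO than in WT cells. The difference was -0.55 for Mbtps2, a protease that releases SREBP, -0.57 for Ube2g2, a ubiquitin-conjugating enzyme, -1.02 for Agpat2, an acyltransferase of glycerolipid synthesis, and -1.11 for Acaa2, the mitochondrial thiolase. Agpat2 stood at 37.7 to 39.5 CPM in day 3 WT and 12.2 to 17.5 CPM in day 3 KO libraries, against 21.5 to 24.2 and 16.9 to 20.4 CPM in EpiLC. The calls of Pgrmc1, Fntb, Mbtps2 and Ube2g2 were lost in some fits that left out 1 library: Fntb without EpiLC WT 3 (0.69) or day 3 WT 2 (0.67), Mbtps2 without EpiLC WT 1 (-0.56) or WT 2 (-0.52) or day 3 WT 2 (-0.51) or WT 3 (-0.54), and the other two without at least 1 library of each of the 4 groups. The calls of Agpat2 and Acaa2 held in all of them.

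In 2 members every KO library lay below every WT library in EpiLC, as in 16.3% of all tested genes, and above every WT library at day 5, as in 20.9%. Both held together in 309 of the 12856 tested genes (2.4%). The log2 difference between the day 5 and the EpiLC ratios of KO to WT was 0.69 for Acat2 and 0.82 for Acly, and the difference was not tested. Acat2 stood at 147 to 157 CPM in EpiLC WT and 91.4 to 141 CPM in EpiLC KO, and at 48.3 to 57.9 CPM in day 5 WT and 59.2 to 79.3 CPM in day 5 KO. Acly stood at 1278 to 1319 and 689 to 1186 CPM in EpiLC, and at 538 to 629 and 685 to 894 CPM at day 5.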

How the results depend on the processing

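Of 64 member calls, all 64 kept direction and threshold under RLE size factors, DESeq2, removal of chromosome medians and without line A2, 63 under the replicate block, 62 under limma-trend, 61 without a filter and 53 when only the groups compared were fitted, and none changed sign in these fits. Calls over all tested genes moved between settings as well. Without line A2 they went from 11.1% to 13.8% in EpiLC, from 10.2% to 20.9% at day 3 and from 17.5% to 29.9% at day 5. The counts below therefore do not tell a change in the members from a general change in calls. Counts of members called moved as follows. For KO against WT in EpiLC (2), 1 without a filter, 1 with limma-trend, 0 when only the groups compared were fitted, 4 with chromosome medians removed and 0 to 4 when leaving out each library (0 without WT 1, WT 2 or WT 3, 1 without KO A2, 4 without KO B1). At day 3 (3), 9 without line A2. At day 5 (5), 19 without line A2, 8 with chromosome medians removed and 3 to 8 when leaving out each library (3 without WT 1, WT 2 or KO B1, 8 without KO A5). From day 3 to day 5 in WT (0), 14 when only the groups compared were fitted, 7 in each direction, and 3 without line A2. From day 3 to day 5 in KO (2), 1 without a filter, 0 when only the groups compared were fitted, 5 without line A2 and 0 to 1 when leaving out each library (0 without day 3 KO B1). For the interaction with induction (0), 3 with the replicate block, 3 without line A2, 2 with chromosome medians removed and 0 to 1 when leaving out each library (1 without EpiLC KO A5, day 3 KO A5 or day 3 KO A2). For the interaction with the step to day 5 (0), 1 with DESeq2 and 2 without line A2. The causes were not tested, except that fits of 2 groups estimate the spread from 6 libraries. Pairing by the block ended 1 call, Pmvk at day 3, and changed no other count beyond those given. In the fits of only the groups compared, 3678 of all genes were called from day 3 to day 5 in WT and 0 in KO. Depth limits Idi1, Acss2 and Ebp most, the members with the fewest counts.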
